A study of Mus musculus with 6 samples.

Results

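The genes Chka, Pcyt1a, Chpt1, Cept1, Pcyt2, Pemt, Ptdss1, Pisd, Lpcat1 and Lpcat3 encode enzymes that build, convert and remodel the main phospholipids of the cell membrane. They were chosen by name as enzymes of the choline and ethanolamine branches, of the phosphatidylserine route and of lysophospholipid reacylation. Earlier results of these data were known when they were chosen. The genes make up 10 of the 54532 genes in the deposited count table. All 10 were among the 15718 genes with enough counts to be tested.

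Phosphatidylcholine and phosphatidylethanolamine, the most abundant phospholipids of mammalian membranes, are made by parallel routes of the Kennedy pathway: a kinase phosphorylates choline or ethanolamine, a cytidylyl transferase activates it with CTP, and a phosphotransferase joins it to diacylglycerol. Phosphatidylethanolamine can also come from phosphatidylserine by decarboxylation in mitochondria, and hepatocytes are known for a further route, in which phosphatidylethanolamine is methylated to phosphatidylcholine. In the Lands cycle, fatty acids of finished phospholipids are removed and replaced, which sets the saturation of the membrane and, in liver, bears on lipoprotein secretion and lipid droplets.

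Total RNA came from AML12 cells, a non-tumour hepatocyte line established from a mouse carrying a transforming growth factor alpha transgene and labelled wild type here. The PP group (n = 3) received PP at 250 µg/ml for 24 h, and the series title names peptides of Camellia oleifera meal. The PA/OA group (n = 3) is the model group and received PA at 400 nM and OA at 800 nM, doses in the units of the labels, for 24 h. The labels do not say whether the PP cells also received PA/OA, and untreated cells were not analysed here. Separate cultures are not named for the libraries of a group, so p-values measure the spread between libraries, which may be technical. In bulk RNA, fewer cells of a type and less RNA per cell cannot be told apart.

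The libraries held 27418502 to 32560589 counts in PP and 24113169 to 26825673 in PA/OA. Counts fell on 19555 to 19779 genes in PP libraries, against 22800 to 23329 in PA/OA libraries, and TMM scaling factors were 0.849 to 0.868 in PP and 1.15 to 1.17 in PA/OA. Levels are given as CPM, counts scaled to a common library size with TMM factors. The hepatocyte label rested on few of its markers: of 14, 9 were tested, 2 were higher and 4 lower in PP, and Alb, the albumin gene, averaged 9.89 CPM in PP and 12.2 CPM in PA/OA while Apoa2 had no count. Apob, the apolipoprotein B gene, fell to 75.7 CPM in PP, against 245 CPM in PA/OA, and Hnf4a, a hepatocyte transcription factor gene, to 26.8 CPM in PP, against 71.6 CPM in PA/OA (log2 fold changes -1.70 and -1.42, edgeR adjusted p = 3.12e-15 and 2.92e-13). Cebpa, another such factor, had 0, 4 and 0 counts in PP and 24, 21 and 13 in PA/OA and was lower. These markers and the genes below moved between the same groups, and their part in the results was not tested. The keratin genes Krt8 and Krt18, both higher in PP, held most of the summed level of that list, which was 3721 to 4070 CPM in PP and 3008 to 3220 CPM in PA/OA. Of 8 macrophage and leukocyte markers the sum was 27.0 to 30.0 CPM in PP and 3.66 to 4.28 CPM in PA/OA, nearly all of it from Cd68, a lysosomal protein gene, with Adgre1 and Clec4f at 0 in all 6 libraries. Summed fibroblast and stellate cell markers were 2.89 to 6.22 CPM in PP and 4.66 to 6.25 CPM in PA/OA, with Lum at 0. Summed endothelial markers were 0.836 to 1.59 CPM in PP and 0.796 to 1.68 CPM in PA/OA.

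Cells labelled PP had about 2-fold less mRNA of the choline kinase gene Chka and about 2-fold more of Pcyt2, the cytidylyl transferase gene of the ethanolamine branch. Ptdss1, Lpcat1 and Pemt were also lower in PP, and Cept1 and Lpcat3 were slightly higher, although the direction of these last depended on the scaling. Pcyt1a, Chpt1 and Pisd did not pass the test. In the quasi-likelihood test of edgeR, with p-values adjusted over all genes tested by Benjamini and Hochberg and a threshold of 0.05, 7 of the 10 genes differed, where 75.0% of all genes tested did. Of the 10, 3 were higher in PP, where 35.1% of all genes were, and 4 were lower, where 39.9% of all genes were. The PP and PA/OA libraries did not overlap for 8 of the 10 genes, which compares with 77.4% of all genes. The median log2 fold change, PP minus PA/OA, was -0.06 over the 10 genes and -0.09 over all genes tested. The counts of calls were thus near those of the whole transcriptome, and what follows concerns which enzymes lay on which side.

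To compare genes with each other, levels were expressed as CPM per kilobase (kb) of the gene length in the deposited table. In PP the order was Lpcat3 at 55.8 ± 2.10, Chka at 40.4 ± 0.183, Pcyt2 at 31.8 ± 1.88, Cept1 at 28.9 ± 2.41 and Ptdss1 at 7.48 ± 0.494 CPM per kb (SD, n = 3). Pcyt1a at 5.55 ± 0.0671, Chpt1 at 2.96 ± 0.186, Pisd at 2.56 ± 0.421, Lpcat1 at 1.71 ± 0.131 and Pemt at 1.06 ± 0.127 CPM per kb followed. Libraries overlapped between Pcyt2 and Cept1 and between Chpt1 and Pisd, so these neighbours were not separated in PP. In PA/OA the order was Chka at 81.5 ± 2.41, Lpcat3 at 48.8 ± 2.37, Cept1 at 23.7 ± 2.56, Pcyt2 at 15.3 ± 1.50 and Ptdss1 at 11.6 ± 0.940 CPM per kb (SD, n = 3). Pcyt1a at 5.93 ± 0.234, Lpcat1 at 2.65 ± 0.326, Chpt1 at 2.63 ± 0.262, Pisd at 2.62 ± 0.0777 and Pemt at 1.92 ± 0.147 CPM per kb came after them. There Lpcat1 overlapped with Chpt1, and Chpt1 with Pisd. Per kb, Chka and Lpcat3 thus held the top places in both groups, in opposite order, and Pemt the bottom one. The length is that of the merged exons of all annotated transcripts, 12024 bases for Chka and 3268 for Lpcat3, and the order depends on it. By CPM alone Chka was above Lpcat3 in both groups, at 486 against 182 CPM in PP and 980 against 159 CPM in PA/OA.

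Whether counting used strand is not given, so genes that overlap others are uncertain. Pcyt2, Pemt and Lpcat1 share no exonic base with another annotated gene, and the other 7 do. The overlap was 74 of 12024 bases for Chka, 229 of 4294 for Ptdss1 with Mterf3, 567 of 7412 for Pcyt1a with Slc51a, 660 of 8324 for Chpt1 with Sycp3 and 334 of 3268 for Lpcat3 with Emg1. Emg1 was itself higher in PP, with a log2 fold change of 0.45 under TMM scaling.

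**Figure D1:**
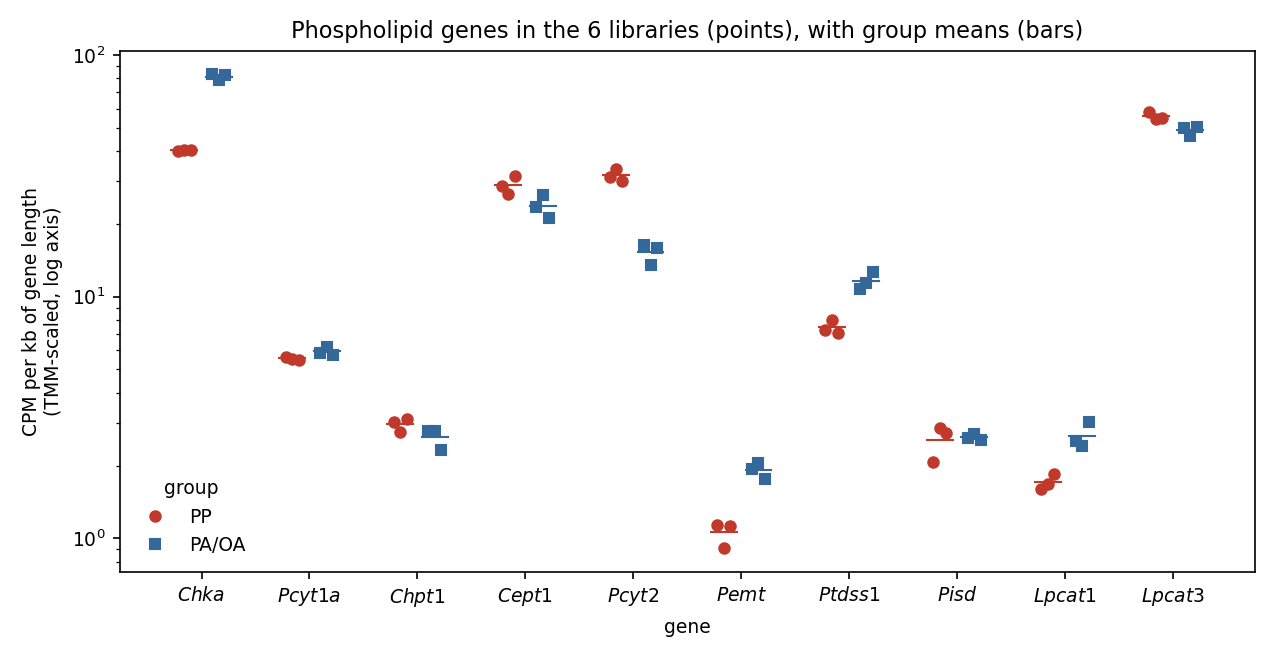
TMM-scaled CPM per kb of gene length (log axis) of the 10 genes in each library, PP in red circles and PA/OA in blue squares, with bars for the mean of 3 libraries. Chka and Pcyt2 show the widest gaps between groups, with means of 40.4 in PP and 81.5 in PA/OA for Chka and of 31.8 in PP and 15.3 in PA/OA for Pcyt2, while Chpt1 and Pisd overlap.

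The choline branch starts with Chka (ENSMUSG00000024843; chromosome 19, 3851773 to 3894369 on the plus strand, build mm10), which encodes the choline kinase alpha that phosphorylates choline. Its level was 484, 488 and 485 CPM in PP libraries, against 1000, 947 and 993 CPM in PA/OA libraries. The groups lay far apart and the PP libraries were almost identical. Chka fell in PP by 1.01 on the log2 scale (SE 0.05, 95% interval -1.12 to -0.91, edgeR adjusted p = 6.55e-14), and 24.9% of all genes tested had a lower fold change. In rank by count among protein-coding genes it stood at 359 to 367 in PP libraries and at 54 to 67 in PA/OA libraries, and it took 0.0415% to 0.0420% of each PP library and 0.109% to 0.117% of each PA/OA library.

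Chkb, the gene of the second choline kinase isoform, was scarce. It averaged 1.05 ± 0.198 CPM in PP and 0.573 ± 0.145 CPM in PA/OA (SD, n = 3), with 24 to 30 counts per PP library and 13 to 21 per PA/OA library. Its log2 fold change of 0.87 (SE 0.43) did not pass the test (edgeR adjusted p = 0.0751), although it did with halved counts (0.91) and with each library's trend with abundance removed (1.92), and 1552 of its 3061 exonic bases lie under another gene on the same strand, Gm44502. Of the summed per-kb level of both kinase genes, Chka made up 99.0% to 99.3% in PP libraries and 99.7% to 99.8% in PA/OA libraries. With that overlap the level of Chkb is uncertain whatever the strand setting.

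Pcyt1a (ENSMUSG00000005615; chromosome 16, 32430921 to 32475070, plus strand) encodes the alpha form of CTP:phosphocholine cytidylyl transferase, the rate-limiting enzyme of the branch. It had 41.7, 41.1 and 40.7 CPM in PP, against 43.3, 45.9 and 42.6 CPM in PA/OA. Every PP library lay just below every PA/OA library. The log2 fold change of -0.10 (SE 0.07, 95% interval -0.25 to 0.05) did not pass the test (edgeR adjusted p = 0.236) and lay near the median of all genes. Pcyt1b, the gene of the beta form, was higher in PP, with 5.51 ± 0.736 CPM in PP and 3.30 ± 0.383 CPM in PA/OA (SD, n = 3; log2 fold change 0.74, SE 0.20, edgeR adjusted p = 0.00201). With library size only its log2 fold change was 0.31 and did not pass (edgeR adjusted p = 0.164).

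The start regions of Chka and Pcyt1a, consecutive enzymes of which Chka passed the test and Pcyt1a did not, are shown 5′ to 3′ from RefSeq on build GRCm38.p6, 250 bases before to 50 after an annotated start. Capitals mark matches, on either strand, to the GC box (GGGCGG), the CCAAT box (CCAAT) and the sterol regulatory element core (TCACNCCAC). The Chka window is chr19:3851523-3851822 and the Pcyt1a window chr16:32430671-32430970, both on the plus strand.
Chka: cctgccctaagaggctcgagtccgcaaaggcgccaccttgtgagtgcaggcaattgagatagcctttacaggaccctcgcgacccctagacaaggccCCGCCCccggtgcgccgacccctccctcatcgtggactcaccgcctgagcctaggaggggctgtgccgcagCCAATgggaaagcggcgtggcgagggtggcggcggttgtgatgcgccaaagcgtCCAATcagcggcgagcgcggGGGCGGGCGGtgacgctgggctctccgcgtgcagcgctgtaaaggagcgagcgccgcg
Pcyt1a: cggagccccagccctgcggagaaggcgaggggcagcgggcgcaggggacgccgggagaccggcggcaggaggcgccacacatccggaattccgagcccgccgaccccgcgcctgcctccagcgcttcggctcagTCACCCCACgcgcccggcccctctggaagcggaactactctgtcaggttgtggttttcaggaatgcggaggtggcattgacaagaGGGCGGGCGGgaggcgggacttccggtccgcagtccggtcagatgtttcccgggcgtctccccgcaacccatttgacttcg
Chka held 3 GC boxes, at -153, -8 and -4 from the start counted as 0, of which the last pair overlap, and 2 CCAAT boxes at -82 and -28. Pcyt1a held a pair of overlapping GC boxes at -31 and -27 and the sterol element core at -116. RefSeq windows were found for 8 of the 10 genes, 14 in all, and not for Pcyt2 and Ptdss1. A GC box stood in at least 1 window of 7 of the 8 genes and a CCAAT box in 6, against 35.7% and 37.4% of 32851 single windows of all genes. Several genes have more than 1 window, so the shares are not on the same footing. Only Pcyt1a held the sterol element core, which 1.24% of all windows hold. No window of the 8 genes held an E-box (CACGTG), a cAMP response element (TGACGTCA), an AP-1 site (TGANTCA) or a TATA box (TATAAA), which stood in 7.15%, 1.79%, 7.81% and 13.6% of all windows. The hypoxia response core (ACGTG), which is not capitalised in the sequences, stood in at least 1 window of 3 genes, Cept1, Pisd and Lpcat1. Of all windows 19.6% held it. These are matches of letters, not measured binding sites.

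The last step of the choline branch is shared by 2 of the genes. Chpt1 (ENSMUSG00000060002; chromosome 10, 88452745 to 88504073, minus strand) encodes cholinephosphotransferase, and had 25.3, 22.9 and 25.8 CPM in PP against 23.2, 23.1 and 19.4 CPM in PA/OA. The groups overlapped, and the log2 fold change of 0.17 (SE 0.10, 95% interval -0.03 to 0.38) did not pass the test (edgeR adjusted p = 0.120). Cept1 (ENSMUSG00000040774; chromosome 3, 106502260 to 106547802, minus strand), whose enzyme uses both CDP-choline and CDP-ethanolamine, had 89.1, 83.1 and 98.0 CPM in PP and 73.4, 81.9 and 66.0 CPM in PA/OA. All PP libraries were above all PA/OA libraries, but the closest were 83.1 and 81.9 CPM. Cept1 rose in PP by a log2 fold change of 0.29 (SE 0.08, 95% interval 0.13 to 0.45, edgeR adjusted p = 0.00184) with TMM scaling but was -0.15 with library size only and -0.025 with the abundance trend removed, and 0.050 and not past the threshold with upper-quartile scaling. Of its exonic bases, 771 of 3116 lie opposite Dennd2d, which fell by 1.05 on the log2 scale in PP, so reads of both genes cannot be told apart unless strand was counted.

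In the ethanolamine branch, Pcyt2 (ENSMUSG00000025137; chromosome 11, 120610087 to 120617936, minus strand) encodes CTP:phosphoethanolamine cytidylyl transferase, the control step of that branch. It had 136, 147 and 131 CPM in PP libraries, against 71.2, 59.0 and 69.3 CPM in PA/OA libraries. The lowest PP library was well above the highest PA/OA library. Pcyt2 rose in PP by a log2 fold change of 1.05 (SE 0.07, 95% interval 0.91 to 1.20, edgeR adjusted p = 8.70e-12), and 88.6% of all genes tested had a lower fold change. With TMM scaling its absolute change was close to that of Chka, within their errors. With the abundance trend removed Chka had the larger one (-1.67, against 0.71 for Pcyt2). Measured from 0, Chka was also further with library size only (-1.45, against 0.62) and with upper-quartile scaling (-1.25, against 0.81). Both these scalings shift every gene alike, with medians over all genes of -0.52 and -0.32, so they do not rank Chka and Pcyt2. No exonic base of Pcyt2 lies under another annotated gene.

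The kinases ahead of Pcyt2 are encoded by Etnk1 and Etnk2. Etnk1, by far the more abundant, averaged 177 ± 8.63 CPM in PP and 170 ± 5.91 CPM in PA/OA (SD, n = 3) and did not pass the test (log2 fold change 0.06, SE 0.06, edgeR adjusted p = 0.375). It was called lower with library size only (-0.38, edgeR adjusted p = 4.08e-06), with upper-quartile scaling (-0.18, edgeR adjusted p = 0.00507) and with the abundance trend removed (-0.39, edgeR adjusted p = 2.01e-06). Etnk2 averaged 2.23 ± 0.727 CPM in PP and 0.709 ± 0.165 CPM in PA/OA and was higher (log2 fold change 1.64, SE 0.36, edgeR adjusted p = 3.54e-04). Selenoi, the gene of the ethanolaminephosphotransferase of the last step, was lower, with 101 ± 4.13 CPM in PP and 164 ± 12.3 CPM in PA/OA (log2 fold change -0.71, SE 0.06, edgeR adjusted p = 8.35e-10). With TMM scaling Etnk2 and Pcyt2 were thus higher in PP and Selenoi lower, while Etnk1, the main kinase gene by level, did not pass. Etnk2 rested on 39 to 68 counts per PP library and 16 to 28 per PA/OA library.

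The 3 protein-coding genes whose levels followed Pcyt2 most closely, by the root mean square difference over 6 libraries of log2 CPM centred at the PA/OA mean, were Capg at 0.0291, Rpl34 at 0.0325 and Naglu at 0.0332, among 10305 genes compared. Capg, an actin-capping protein gene, averaged 176 CPM in PP and 84.5 CPM in PA/OA. The ribosomal protein gene Rpl34 averaged 29.7 CPM in PP and 14.0 CPM in PA/OA, and Naglu, a lysosomal enzyme gene, averaged 79.1 CPM in PP and 38.0 CPM in PA/OA.

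Pemt (ENSMUSG00000000301; chromosome 11, 59970614 to 60046489, minus strand), the methyltransferase that turns phosphatidylethanolamine into phosphatidylcholine, was the scarcest of the 10 genes per length. It had 57, 53 and 65 counts in PP libraries and 128, 130 and 104 in PA/OA libraries, or 2.40, 1.92 and 2.36 CPM in PP against 4.08, 4.32 and 3.71 CPM in PA/OA. The groups were apart in every library. Pemt fell in PP by 0.86 on the log2 scale (SE 0.22, 95% interval -1.33 to -0.39, edgeR adjusted p = 0.00164). Its interval was the widest of the 10, and with the abundance trend removed the log2 fold change was -0.40 and did not pass (edgeR adjusted p = 0.112).

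Around Pemt, the enzymes that supply and clear methyl groups moved in both directions. Of 5 genes tested in that list, Pemt included, 2 were higher and 3 lower in PP, with a median log2 fold change of -0.86, and Mat1a was not tested. With library size only or upper-quartile scaling 1 was higher and 3 lower, with the abundance trend removed 1 was higher and 1 lower, and without PA/OA replicate 2, 2 were higher and 2 lower. Mat2a, the catalytic S-adenosylmethionine synthetase of extrahepatic and growing cells, fell to 71.9 ± 1.10 CPM in PP, against 193 ± 4.15 CPM in PA/OA (SD, n = 3; log2 fold change -1.43, SE 0.05, edgeR adjusted p = 8.58e-16). Ahcy, which hydrolyses S-adenosylhomocysteine, was higher at 165 CPM in PP and 90.4 CPM in PA/OA, and Mat2b, a regulatory subunit, had 92.1 CPM in PP and 70.8 CPM in PA/OA (edgeR adjusted p = 4.62e-12 and 4.19e-05). The log2 fold change of Mat2b was 0.38 with TMM scaling and -0.055 with library size only. Particl lies over 508 of the 4486 exonic bases of Mat2a, so its counts are uncertain there.

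Ptdss1 (ENSMUSG00000021518; chromosome 13, 66932830 to 66998401, plus strand) encodes phosphatidylserine synthase 1, which exchanges the choline of phosphatidylcholine for serine. It had 31.4, 34.5 and 30.5 CPM in PP against 46.3, 48.8 and 54.2 CPM in PA/OA. The groups did not overlap, and Ptdss1 fell in PP by 0.63 on the log2 scale (SE 0.08, 95% interval -0.80 to -0.46, edgeR adjusted p = 4.13e-07). Ptdss2, whose synthase uses phosphatidylethanolamine in place of phosphatidylcholine, lay on the other side. It had 53.3, 64.9 and 54.1 CPM in PP and 26.4, 26.2 and 29.7 CPM in PA/OA, a log2 fold change of 1.07 (SE 0.09, edgeR adjusted p = 2.69e-10). Per kb, Ptdss1 was 0.772, 0.698 and 0.740 of Ptdss2 in PP libraries, and 2.30, 2.44 and 2.39 times Ptdss2 in PA/OA libraries. The more abundant of both synthase genes was thus Ptdss2 in PP and Ptdss1 in PA/OA.

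Pisd (ENSMUSG00000023452; chromosome 5, 32736301 to 32785646, minus strand), the mitochondrial decarboxylase that makes phosphatidylethanolamine from phosphatidylserine, had 11.9, 16.5 and 15.7 CPM in PP and 14.9, 15.6 and 14.7 CPM in PA/OA. PP replicate 1 was the lowest of the 6 libraries and PP replicate 2 the highest, so that the groups overlapped. The log2 fold change of -0.03 (SE 0.12, 95% interval -0.29 to 0.22) did not pass the test (edgeR adjusted p = 0.815), and without PP replicate 1 it was 0.12. Pisd was called lower with library size only (-0.47, edgeR adjusted p = 0.0016) and with upper-quartile scaling (-0.27, edgeR adjusted p = 0.0497). Of its exonic bases, 1156 of 5750 lie under Gm20671, a gene with no count here. Both lie on the same strand, so the level of Pisd is uncertain whatever the strand setting. Among its pseudogenes, Pisd-ps1 averaged 2.47 ± 0.272 CPM in PP and 8.88 ± 0.379 CPM in PA/OA (SD, n = 3; log2 fold change -1.84, edgeR adjusted p = 4.77e-09), and Pisd-ps2 averaged 0.131 CPM in PP and 0.998 CPM in PA/OA. Only 0.598% of the 100-base windows of Pisd transcripts were also found in Pisd-ps2.

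Among the lysophospholipid acyltransferases, Lpcat3 (ENSMUSG00000004270; chromosome 6, 124663027 to 124704418, plus strand), which places polyunsaturated fatty acids into lysophosphatidylcholine, was the most abundant. It had 190.3, 178 and 179.5 CPM in PP and 163, 150.5 and 165 CPM in PA/OA. The groups were apart by a small margin, and Lpcat3 rose in PP by a log2 fold change of 0.19 (SE 0.06, 95% interval 0.08 to 0.31, edgeR adjusted p = 0.00346), which was -0.24 with library size only, -0.043 with upper-quartile scaling and -0.24 with the abundance trend removed. Lpcat1 (ENSMUSG00000021608; chromosome 13, 73467197 to 73516422, plus strand), which prefers saturated acyl groups and is best known from lung surfactant, had 7.40, 7.74 and 8.58 CPM in PP and 11.7, 11.1 and 14.0 CPM in PA/OA. Here every PP library was below every PA/OA library, and Lpcat1 fell by 0.63 on the log2 scale in PP (SE 0.14, 95% interval -0.92 to -0.35, edgeR adjusted p = 2.94e-04).

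The start regions of both acyltransferase genes are given in the same way, since these genes lay on opposite sides with TMM scaling. The Lpcat3 window is chr6:124662854-124663153 and the Lpcat1 window chr13:73466981-73467280 on GRCm38.p6, both on the plus strand, and capitals again mark GC boxes and CCAAT boxes on either strand.
Lpcat3: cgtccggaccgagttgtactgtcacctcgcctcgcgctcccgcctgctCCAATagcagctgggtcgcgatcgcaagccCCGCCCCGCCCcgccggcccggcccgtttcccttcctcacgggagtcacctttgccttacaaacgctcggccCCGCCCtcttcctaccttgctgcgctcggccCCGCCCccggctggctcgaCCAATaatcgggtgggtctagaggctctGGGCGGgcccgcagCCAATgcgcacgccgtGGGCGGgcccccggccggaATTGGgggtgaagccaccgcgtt
Lpcat1: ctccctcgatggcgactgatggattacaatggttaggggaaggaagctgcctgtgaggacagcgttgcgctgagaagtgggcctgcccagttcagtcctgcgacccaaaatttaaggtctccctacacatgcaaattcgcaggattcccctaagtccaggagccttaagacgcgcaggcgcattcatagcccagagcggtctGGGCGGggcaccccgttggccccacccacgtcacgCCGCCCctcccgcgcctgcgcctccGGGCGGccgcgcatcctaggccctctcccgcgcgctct
Lpcat3 held 6 GC boxes and 4 CCAAT boxes, and Lpcat1 held 3 GC boxes and no CCAAT box. The hypoxia response core of the Lpcat1 window, at -22, is not marked. GC content was 71.0% in the Lpcat3 window and 64.0% in the Lpcat1 window.

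Of the other acyltransferase genes, Lpcat4 averaged 57.4 ± 3.87 CPM in PP and 47.9 ± 4.50 CPM in PA/OA (SD, n = 3; log2 fold change 0.26, edgeR adjusted p = 0.0049, but -0.17 with library size only). Mboat1, which acylates lysophosphatidylserine and lysophosphatidylethanolamine, was lower at 53.7 ± 0.173 CPM in PP and 83.3 ± 4.98 CPM in PA/OA (log2 fold change -0.63, edgeR adjusted p = 1.31e-08). Lpcat2 had 2 counts, both in PP replicate 3, and was not tested. Of 6 genes of this list that were tested, both members included, 2 were higher, 2 lower and 2 not past the threshold, with a median log2 fold change of 0.04. None was higher in 3 other settings, which gave 5 lower with library size only, 3 lower with upper-quartile scaling and 4 lower with the abundance trend removed.

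Because the scaling between libraries moved the small changes, 9 pairs of genes were also compared as ratios of counts within each library. A factor common to all genes of a library leaves such a ratio unchanged, but removal of the abundance trend does not. With that trend removed, the log2 fold changes of Lpcat3 and Lpcat1 (-0.24 and -0.40) and of Pemt and Pcyt1a (-0.40 and -0.26) lay closer together. Those of Chka and Pcyt1a (-1.67 and -0.26) lay further apart. The exact two-sided permutation test over 3 against 3 libraries cannot go below 0.1, and adjusted over the 9 pairs it cannot pass the threshold here. For 8 pairs the groups did not overlap (exact p = 0.1, adjusted p = 0.113), and for Chpt1 over Cept1 they did (exact p = 0.2, adjusted p = 0.2). Among all single genes tested the groups did not overlap for 77.4%, and the share over other pairs of genes was not computed. Per kb, Pcyt1a stood at 0.180, 0.164 and 0.182 of Pcyt2 in PP libraries and at 0.357, 0.456 and 0.361 of Pcyt2 in PA/OA libraries, a log2 difference of -1.15. The choline cytidylyl transferase was thus the scarcer of the pair in all libraries, and more so in PP. Chka stood at 7.15, 7.32 and 7.35 times Pcyt1a in PP and at 14.2, 12.7 and 14.4 times in PA/OA, a log2 difference of -0.92. Lpcat3 stood at 36.4, 32.5 and 29.6 times Lpcat1 in PP and at 19.7, 19.1 and 16.7 times in PA/OA, a log2 difference of 0.82. Cept1 stood per kb at 3.73, 3.63 and 3.94 times Selenoi in PP and at 2.00, 1.94 and 1.75 times in PA/OA, a log2 difference of 0.99. By counts alone Cept1 was below Selenoi in every library. The largest differences were those of Chka over Chkb at -1.88, with few counts for Chkb, and of Ptdss1 over Ptdss2 at -1.69. Pemt over Pcyt1a differed by -0.76 and Pisd over Ptdss1 by 0.58.

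**Figure D2:**
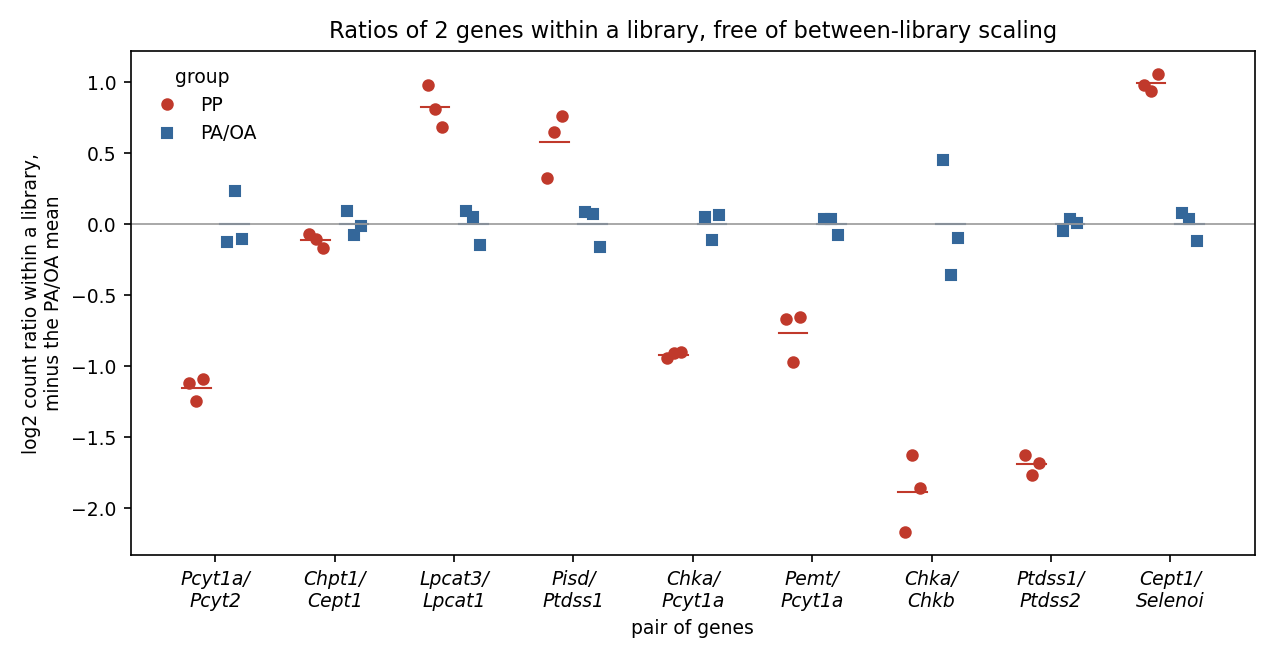
Log2 ratio of the counts of a pair of genes within each library, set against the PA/OA mean of that pair, for PP in red circles and PA/OA in blue squares, with bars for means of 3 libraries. The PP libraries lie apart from the PA/OA libraries in every pair except Chpt1 over Cept1, with mean differences from -1.88 for Chka over Chkb to 0.99 for Cept1 over Selenoi.

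The scaling bore on the members in a graded way. The median log2 fold change of all genes was -0.09 with TMM, -0.52 with library size only, -0.32 with upper-quartile scaling and 0.01 with each library's trend with abundance removed, and changes are read against it. All genes tested split into 5510 higher and 6275 lower with TMM, 3237 higher and 8899 lower with library size only, and 4241 higher and 7688 lower with upper-quartile scaling. Chka ranged from -1.67 with the trend removed to -0.98, Pcyt2 from 0.62 with library size only to 1.11, Ptdss1 from -1.07 to -0.56 and Lpcat1 from -1.07 to -0.40, and these 4 genes passed the test under every alternative run. Pcyt1a was called lower with library size only (-0.53), upper-quartile scaling (-0.33), protein-coding genes only (-0.18) and the trend removed (-0.26). With TMM scaling 49.7% of all genes tested had a lower fold change than Pcyt1a, and library size or upper-quartile scaling shifts every gene alike. Removal of the trend does not, and there Pcyt1a at -0.26 (edgeR adjusted p = 0.003) lay below the median of all genes, 0.01.

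**Figure D3:**
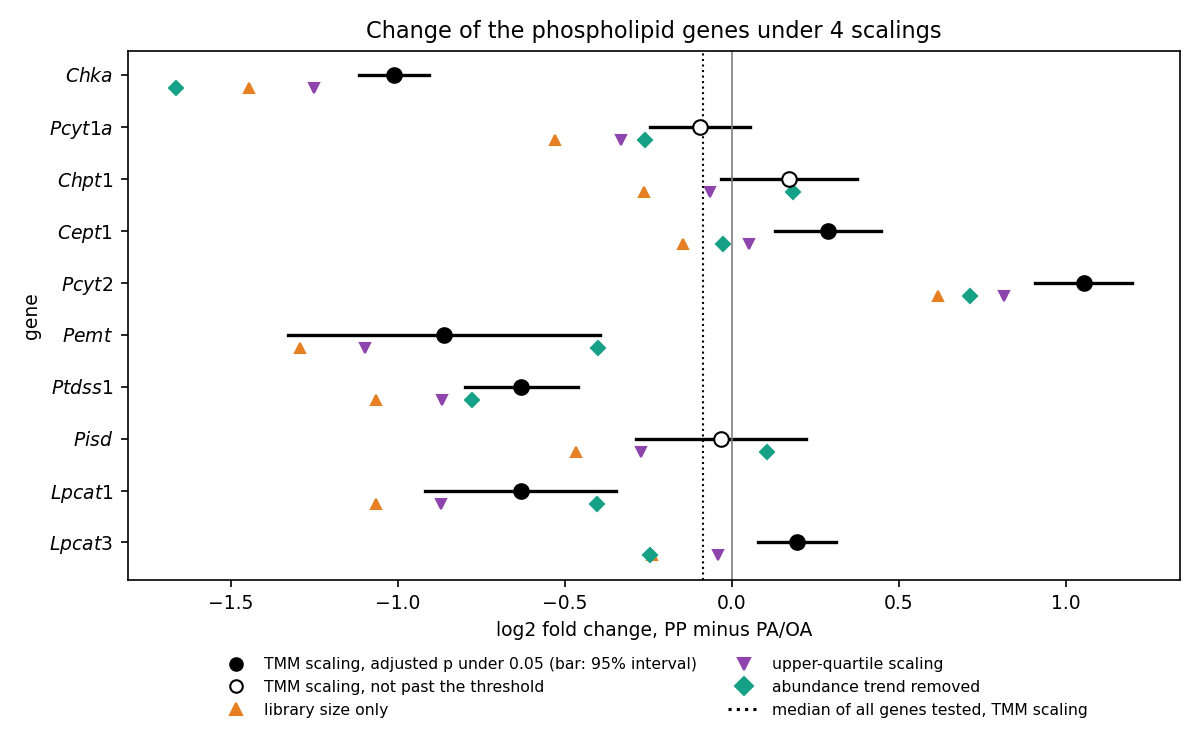
Log2 fold change, PP minus PA/OA, of the 10 genes with TMM scaling (circles with 95% intervals, filled where the adjusted p is under 0.05) and under 3 other scalings (coloured symbols). Chka, Pemt, Ptdss1 and Lpcat1 stay below 0 and Pcyt2 above 0 under all 4, while Chpt1, Cept1, Pisd and Lpcat3 change sign under at least 1 of them, for example Lpcat3 from 0.19 with TMM to -0.24 with library size only.

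The wider phospholipid pathway was described with 11 lists written from general knowledge, with earlier results of these data known. Outside the 10 genes these lists had 82 genes in the table, of which 66 were tested. In PP 31 of the 66 (47.0%) were higher and 21 (31.8%) lower, against 35.1% and 39.9% of all genes, and 14 missed the threshold; the median log2 fold change was 0.16, against -0.09 for all genes. The balance of the 66 genes moved with the scaling, as did that of all genes. They gave 20 higher and 33 lower with library size only, where 3237 of the 15718 genes tested were higher and 8899 lower. With upper-quartile scaling they gave 27 higher and 29 lower, where 4241 of all genes were higher and 7688 lower. With the abundance trend removed they gave 27 higher and 25 lower, where 5609 of all genes were higher and 5567 lower.

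Of 7 genes tested for choline uptake and oxidation, 3 were higher, 3 lower and 1 not past the threshold in PP, with a median log2 fold change of -0.09. The higher genes, named after their values were seen, were the choline transporter-like genes Slc44a1, Slc44a2 and Slc44a3. Slc44a1 averaged 86.1 CPM in PP and 50.1 CPM in PA/OA, and Slc44a3 averaged 85.4 CPM in PP and 56.2 CPM in PA/OA. Slc44a2 averaged 167 ± 1.34 CPM in PP and 91.0 ± 6.58 CPM in PA/OA (SD, n = 3; log2 fold change 0.87, edgeR adjusted p = 1.22e-11). Of the 3 lower genes, Flvcr1, a choline and haem transporter gene, averaged 14.8 CPM in PP and 25.5 CPM in PA/OA (log2 fold change -0.79, edgeR adjusted p = 1.66e-06), with 809 of its 5177 exonic bases under A230020J21Rik. Sardh, the mitochondrial sarcosine dehydrogenase at the end of choline oxidation, fell to 4.42 ± 0.391 CPM in PP, against 18.4 ± 1.54 CPM in PA/OA (log2 fold change -2.05, edgeR adjusted p = 7.65e-12). Dmgdh, the dimethylglycine dehydrogenase gene, had no count in any library.

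Of 7 genes tested for the CDP-diacylglycerol branch, which leads to phosphatidylinositol and cardiolipin, 3 were higher and 4 lower in PP, with a median log2 fold change of -0.47; with library size only or the abundance trend removed, 1 was higher and 4 lower. Crls1, the cardiolipin synthase gene, averaged 32.8 ± 2.25 CPM in PP and 62.2 ± 6.26 CPM in PA/OA (SD, n = 3; log2 fold change -0.92, edgeR adjusted p = 1.36e-09). Tamm41, which makes mitochondrial CDP-diacylglycerol, and Ptpmt1, the phosphatase ahead of Crls1, were lower too, at 6.70 and 8.24 CPM in PP and 11.5 and 18.0 CPM in PA/OA (log2 fold changes -0.78 and -1.13, edgeR adjusted p = 2.73e-05 and 7.77e-08). Ptpmt1 shares 1657 of 3684 exonic bases with Kbtbd4 on the other strand, so its counts are uncertain.

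Genes for ether lipids gave 4 higher and 2 lower of 6 tested, with a median log2 fold change of 0.48, and 2 higher and 2 lower with library size only. The lower ones were Gnpat and Agps, named after their values were seen, which encode the peroxisomal enzymes that start ether lipid synthesis. Gnpat averaged 75.5 CPM in PP and 93.8 CPM in PA/OA, and Agps 112 CPM in PP and 135 CPM in PA/OA. The fatty acyl-CoA reductases that supply its fatty alcohols were higher, Far1 at 147 ± 1.50 CPM in PP and 102 ± 11.7 CPM in PA/OA and Far2 at 9.70 ± 0.773 CPM in PP and 3.24 ± 1.20 CPM in PA/OA (SD, n = 3; log2 fold changes 0.53 and 1.57, edgeR adjusted p = 3.84e-07 and 6.58e-07). Far1 did not pass with library size only (log2 fold change 0.096, edgeR adjusted p = 0.205) or with the abundance trend removed (0.15, edgeR adjusted p = 0.0523). Tmem189, the plasmanylethanolamine desaturase that makes plasmalogens, averaged 31.7 ± 2.64 CPM in PP and 9.92 ± 0.771 CPM in PA/OA (log2 fold change 1.68, edgeR adjusted p = 3.41e-12). Gm20431 covers 694 of the 3265 exonic bases of Tmem189 on the same strand, so its counts may be split, and Ergic2 lies over 837 of the 7313 of Far2.

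Phospholipases and enzymes that release headgroups gave 8 higher, 3 lower and 8 not past the threshold of 19 tested, with a median log2 fold change of 0.08. The split was 5 higher and 10 lower with library size only, and 8 higher and 8 lower with upper-quartile scaling, and without PA/OA replicate 1 or any 1 of the PP libraries the lower genes numbered 1. Pld3 and Pla2g15, both lysosomal, were higher at 82.9 ± 4.57 and 22.7 ± 1.38 CPM in PP and 32.5 ± 2.56 and 11.4 ± 1.87 CPM in PA/OA (SD, n = 3; log2 fold changes 1.35 and 1.00, edgeR adjusted p = 3.65e-13 and 1.57e-07). Pnpla7, a lysophospholipase gene, fell to 4.52 ± 0.868 CPM in PP, against 15.2 ± 2.87 CPM in PA/OA (log2 fold change -1.74, edgeR adjusted p = 3.78e-09).

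Transfer and scrambling genes gave 7 higher and 5 lower of 13 tested, with a median log2 fold change of 0.35. Tmem41b, an endoplasmic reticulum scramblase, averaged 91.4 ± 2.64 CPM in PP and 31.0 ± 2.76 CPM in PA/OA, and Plscr1, an interferon-inducible gene named for scrambling, 350 ± 17.4 CPM in PP and 109 ± 2.27 CPM in PA/OA (SD, n = 3; log2 fold changes 1.56 and 1.68, edgeR adjusted p = 2.19e-14 and 7.47e-17). Xkr8, the scramblase that exposes phosphatidylserine in apoptosis, was lower at 0.753 ± 0.117 CPM in PP and 2.78 ± 0.427 CPM in PA/OA (log2 fold change -1.88, edgeR adjusted p = 1.43e-05).

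**Figure D4:**
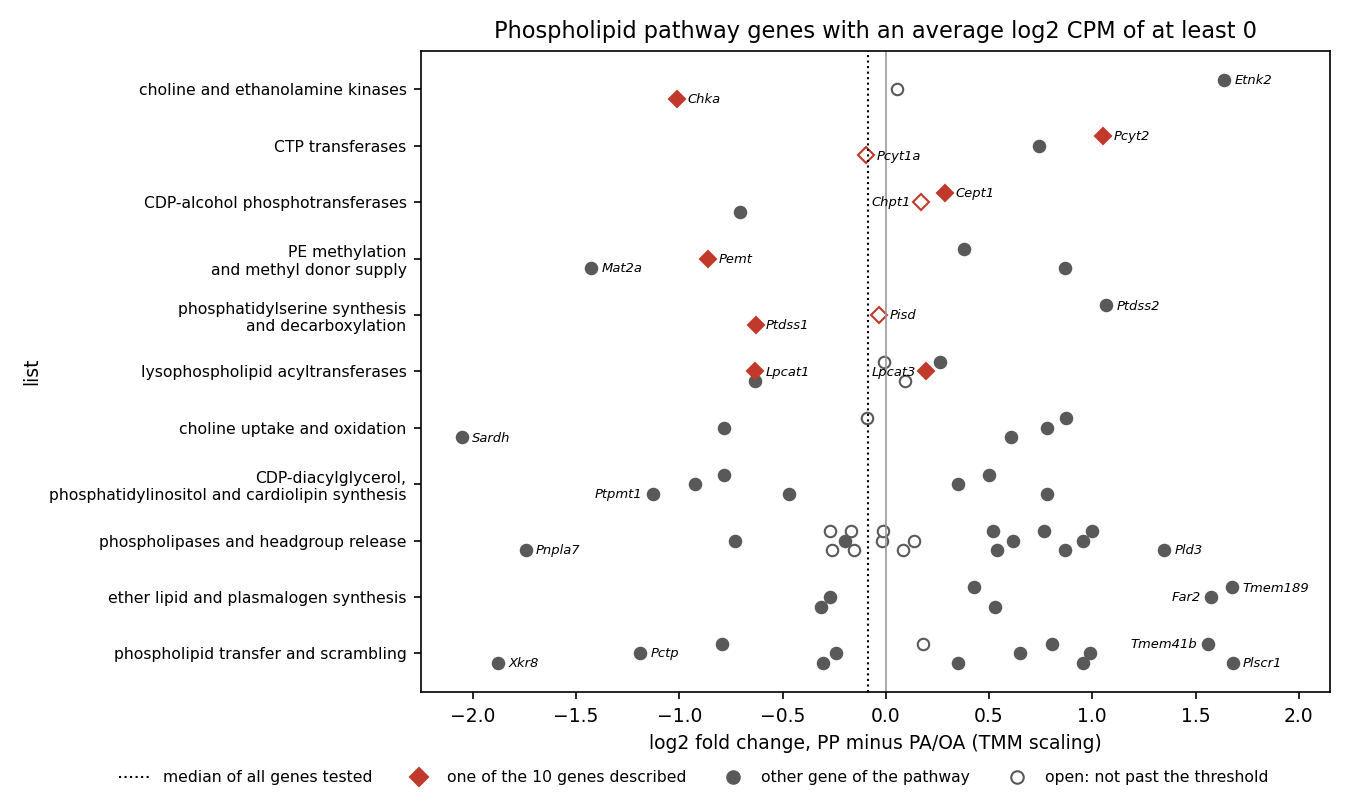
Log2 fold change, PP minus PA/OA with TMM scaling, of the tested genes of 11 phospholipid lists (rows), for genes whose average log2 CPM was 0 or more. Red diamonds are the 10 genes described, grey circles the others and open symbols those not past the threshold, and every list with at least 3 genes past the threshold holds both higher and lower ones, from Sardh at -2.05 to Plscr1 at 1.68.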

How the data were processed

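RNA of 6 libraries of AML12 cells was sequenced, 3 of PP and 3 of PA/OA, and groups were taken from the treatment labels. Per the labels, mRNA was enriched by oligo(dT) beads or by removal of rRNA, without saying which. The values deposited by the authors are raw counts for each gene, made with featureCounts on build mm10 per the submitters' processing notes, which also name DESeq2 1.16.1 without its role. The sources used here give no aligner, annotation or strand setting. Symbols, lengths and coordinates were read from the table. Overlaps used GENCODE M21, and promoter sequences RefSeq GRCm38.p6. Even counts made up 57.1% to 61.5% of counts from 1 to 20, as when both mates of some pairs are counted.

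In R 4.3.3, edgeR 4.0.16 kept 15718 genes (filterByExpr), scaled libraries by TMM and ran the quasi-likelihood F-test, two-sided, of PP over PA/OA, with Benjamini-Hochberg adjustment over all genes tested and a threshold of 0.05. The fit was tested on simulated data in which few genes changed, equally in both directions, so the choice of scaling was not tested. Fold changes are PP minus PA/OA on the log2 scale, with the SE from the F statistic, and the biological coefficient of variation was 7.96%. Within-library ratios used counts plus 0.5 and an exact two-sided permutation test, adjusted over 9 pairs. Alternatives were DESeq2 1.42.0 (tool and size factors), limma 3.58.1 with voom, no filter, a filter of 1 CPM in 3 libraries, upper-quartile scaling, library size only, protein-coding genes only, halved counts, removal of each library's lowess trend with abundance (span 0.4), the replicate number as a block, and leaving out each library in turn. Pairs of replicates gave a chi-square of 3.00 to 4.58 per gene on halved counts, above sampling noise, and each library was kept as a replicate.

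The members and lists were chosen with earlier results of these data known. Genes named are the 10 members, their paralogs, up to 3 others of each list with the largest change among those past the threshold whose average log2 CPM was 0 or more, and the 3 protein-coding genes nearest to the member with the largest change. Overlapping genes and Pisd pseudogenes are named beside the member they touch.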

Additional observations from a re-analysis of the deposited data

How the results depend on the processing

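Chka, Pcyt2, Ptdss1 and Lpcat1 kept their direction and passed the test under every alternative run. The smaller changes moved with the scaling, as did the counts over all genes. Of 15718 genes tested, 5510 were higher and 6275 lower with TMM, and 3237 and 8899 with library size only. Those counts were 4241 and 7688 with upper-quartile scaling, and 5609 and 5567 with the abundance trend removed. The member counts below are read beside them. Under library size only, 3237 genes were higher in PP and the members split into 1 higher and 8 lower; Chpt1 (-0.26), Cept1 (-0.15), Lpcat3 (-0.24), Etnk1 (-0.38), Lpcat4 (-0.17) and Mat2b (-0.055) changed sign, and Chpt1, Lpcat3 and Etnk1 were called lower (edgeR adjusted p = 0.022, 7.82e-04 and 4.08e-06), as was Pisd (-0.47). With upper-quartile scaling 1 member was higher and 6 lower, and Chpt1 (-0.066), Lpcat3 (-0.043) and Etnk1 (-0.18) changed sign, Etnk1 and Pisd (-0.27) being called lower. With the abundance trend removed 1 member was higher and 5 lower; Cept1 (-0.025), Pisd (0.11), Lpcat3 (-0.24, edgeR adjusted p = 6.31e-04) and Etnk1 (-0.39) changed sign, and Pemt (-0.40) no longer passed. With protein-coding genes only, Etnk1 was -0.027, and Lpcat3 (0.11) no longer passed (edgeR adjusted p = 0.0634). Library size only and upper-quartile scaling shift every gene alike, and the median log2 fold change of all genes was -0.52 and -0.32 with them, against -0.09 with TMM. Why calls moved under the other settings was not tested. Without PP replicate 1 Pisd was 0.12, within a range of -0.10 to 0.12 over single libraries left out. Leaving out any 1 library gave 11376 to 11934 genes called and left the members at 3 higher and 4 lower. Of 170 fold changes of members under alternatives, 152 kept direction and call, as did 425 of 440 for other named genes. All 72 of the within-library ratios kept direction. Such ratios cannot change under a factor common to all genes of a library, and were not taken with the abundance trend removed. Chkb (13 to 30 counts) and Pemt (53 to 130 counts) are limited by depth.

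Same-numbered libraries shared no visible deviation: their deviations from the group means correlated at 0.005, 0.003 and -0.023 over 15718 genes. The labels do not say whether the replicate numbers pair the samples. With the replicate number as a block 11515 genes were called, and the members stayed at 3 higher and 4 lower.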
